A study of Homo sapiens with 12 samples.

Results

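Replication-dependent histone genes encode the bulk histone proteins that package newly copied DNA, and their transcripts were followed here in 3 human lung cancer cell lines after a hairpin against the kinase MARK2. Members were the genes whose platform symbol begins with H2AC, H2BC, H3C or H4C and a digit, or is 1 of the linker histones H1-1 to H1-6. A gene was read by its probe set of highest mean among the probe sets with a single symbol. The rule found 62 genes among 18134 on the array, read by 105 probe sets. According to RefSeq (GRCh38.p14), 54 lie on chromosome 6, 7 on chromosome 1 and 1 on chromosome 12, and all are annotated as protein-coding except the transcribed pseudogene H2BC20P. Of the 62, 55 passed the filter on low values, a log2 signal of 5 on at least 2 arrays. The other 7 (H1-1, H2AC12, H2AC14, H2BC1, H2BC3, H2BC10 and H4C13) were not tested.

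The established lines H1650, H1693 and H1993 were chosen by the study for overexpressing MARK2, a microtubule affinity-regulating kinase. Each was transduced with a lentiviral short hairpin RNA against MARK2 (KD) or with the empty vector (PLKO CONTROL), and each of these 6 groups had 2 arrays from biological replicates. All 12 cultures therefore carried a lentiviral vector. The hairpin sequence, the number of hairpins and the time after transduction are not given in the sources used here. Total RNA was labelled by the standard Affymetrix method, and all values are log2 signals from 1 array each, so that a difference of 1 is a 2-fold change.

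Most histone genes are transcribed while the cell copies its DNA, and their transcripts usually end in a stem-loop bound by the protein SLBP in place of a poly(A) tail. The standard Affymetrix label is primed from poly(A) tails, so it reads mainly those histone transcripts that carry one. Some members, H1-2, H2BC5, H2BC12 and H2BC21 among them, are known to make polyadenylated transcripts as well. In chromatin, H3 and H4 form the inner core of the nucleosome, H2A and H2B flank it as dimers, and H1 binds the DNA that enters and leaves it. Genes of 1 class can be closely alike in sequence, so a probe set can read more than 1 gene. Suffixes _s_at and _x_at mark probe sets whose probes match several related transcripts.

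Many H2A and H2B genes stand head to head, with the stretch between their start sites serving both. The stretches between the starts of 5 such pairs are printed because both or either of their genes carried the largest changes described later. Each is given 5′ to 3′ on the plus strand of GRCh38.p14 from RefSeq, with the first gene of the name starting at the left end on the minus strand and the second at the right end on the plus strand. Capitals mark the TATA motif searched as TATAAA, the CCAAT box, and the octamer ATTTGCAT known from H2B promoters, on either strand, with overlaps allowed.
H2BC4 and H2AC6, chr6:26123927-26124171: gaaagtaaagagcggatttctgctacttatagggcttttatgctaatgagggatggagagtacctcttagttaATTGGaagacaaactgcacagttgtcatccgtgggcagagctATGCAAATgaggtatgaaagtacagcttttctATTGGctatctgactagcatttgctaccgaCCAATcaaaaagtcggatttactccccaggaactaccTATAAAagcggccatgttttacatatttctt
H2BC8 and H2AC8, chr6:26216689-26216920: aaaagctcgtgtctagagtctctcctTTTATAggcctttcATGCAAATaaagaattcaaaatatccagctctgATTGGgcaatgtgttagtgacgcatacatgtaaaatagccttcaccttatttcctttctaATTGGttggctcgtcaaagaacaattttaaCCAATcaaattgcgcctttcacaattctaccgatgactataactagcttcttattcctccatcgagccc
H2BC11 and H2AC11, chr6:27132796-27133042: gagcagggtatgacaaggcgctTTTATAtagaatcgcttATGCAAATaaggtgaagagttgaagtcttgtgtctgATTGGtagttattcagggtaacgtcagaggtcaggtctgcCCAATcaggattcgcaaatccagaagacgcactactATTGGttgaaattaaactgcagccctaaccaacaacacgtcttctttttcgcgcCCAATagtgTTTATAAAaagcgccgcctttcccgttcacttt
H2BC13 and H2AC13, chr6:27807930-27808172: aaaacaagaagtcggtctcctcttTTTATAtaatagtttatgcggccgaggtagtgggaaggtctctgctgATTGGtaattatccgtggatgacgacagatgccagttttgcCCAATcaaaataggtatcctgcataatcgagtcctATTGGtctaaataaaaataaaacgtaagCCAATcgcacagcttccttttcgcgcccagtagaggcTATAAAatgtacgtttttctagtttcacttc
H2BC21 and H2AC20, chr1:149886683-149886917: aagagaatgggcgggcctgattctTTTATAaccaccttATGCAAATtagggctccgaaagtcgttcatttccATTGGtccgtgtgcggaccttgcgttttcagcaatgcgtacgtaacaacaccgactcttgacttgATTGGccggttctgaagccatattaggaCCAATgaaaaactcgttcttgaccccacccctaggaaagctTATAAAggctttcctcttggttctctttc

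For 5 more genes that lead the results, the 250 bases before the start are printed on the strand of the gene, with the same motifs in capitals.
H1-2, chr6:26056471-26056720, minus strand: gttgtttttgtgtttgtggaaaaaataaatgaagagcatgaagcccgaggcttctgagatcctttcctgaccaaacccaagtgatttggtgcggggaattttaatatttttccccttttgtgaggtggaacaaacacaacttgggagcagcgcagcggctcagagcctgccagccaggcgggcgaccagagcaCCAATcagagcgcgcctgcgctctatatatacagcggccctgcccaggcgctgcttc
H2AC16, chr6:27865067-27865316, plus strand: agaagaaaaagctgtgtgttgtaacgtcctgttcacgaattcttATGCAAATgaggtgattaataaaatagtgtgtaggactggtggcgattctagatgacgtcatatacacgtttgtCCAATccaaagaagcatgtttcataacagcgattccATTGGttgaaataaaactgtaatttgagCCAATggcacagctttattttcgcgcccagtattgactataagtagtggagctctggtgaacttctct
H2BC12, chr6:27146859-27147108, minus strand: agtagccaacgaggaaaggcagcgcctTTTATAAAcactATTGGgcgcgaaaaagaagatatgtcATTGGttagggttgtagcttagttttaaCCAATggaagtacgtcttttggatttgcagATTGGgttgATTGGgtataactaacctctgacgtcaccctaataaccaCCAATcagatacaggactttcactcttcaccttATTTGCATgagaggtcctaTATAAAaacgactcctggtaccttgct
H3C3, chr6:26045134-26045383, plus strand: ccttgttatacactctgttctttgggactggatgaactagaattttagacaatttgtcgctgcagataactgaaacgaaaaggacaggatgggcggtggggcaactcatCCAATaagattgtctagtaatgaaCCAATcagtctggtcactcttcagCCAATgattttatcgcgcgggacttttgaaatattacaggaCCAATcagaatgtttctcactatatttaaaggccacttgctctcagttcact
H4C8, chr6:26285535-26285784, minus strand: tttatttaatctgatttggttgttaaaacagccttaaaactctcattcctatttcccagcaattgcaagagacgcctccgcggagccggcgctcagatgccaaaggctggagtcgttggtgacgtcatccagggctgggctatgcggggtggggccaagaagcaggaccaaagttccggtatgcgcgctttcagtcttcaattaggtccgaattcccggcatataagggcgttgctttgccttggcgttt

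Promoter windows of 250 bases before the start were found for 56 of the 62 genes. TATAAA occurred in 36 of these 56 (64.3%) and in 10.7% of all 35116 promoters of the RefSeq table. CCAAT occurred in 49 (87.5%), against 32.0% of all promoters, and in every H1, H2A, H2B and H3 window but in only 3 of the 10 H4 windows. The octamer occurred in 26 (46.4%), against 1.63% of all promoters. It was held by 11 of 14 H2A and 14 of 18 H2B windows, by 1 of 8 H3 windows and by no H1 or H4 window. H4C8, among the largest risers in H1693, has none of the 3 motifs in its window. These matches describe letters and not bound sites.

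The targeted gene was read first. MARK2 measured 9.17 and 9.06 on the H1993 control arrays and 6.76 and 6.77 on the KD arrays, so that it fell by 2.35 (SE 0.16, adjusted p = 6.47e-06, limma). In H1693 it went from 7.76 and 7.97 to 6.62 and 6.57, a change of -1.27 (adjusted p = 0.000258). In H1650 the control arrays read 6.07 and 5.80 and the arrays labelled KD 5.92 and 5.37. This change of -0.29 did not pass the test (adjusted p = 0.156, limma), so the label was not borne out there by the targeted gene. Even these control arrays read below the KD arrays of H1693 and H1993, so a fall had less room to show. The H1650 arrays also stood apart in the control probe sets that compare the 3′ with the 5′ end of a transcript. For GAPDH this difference averaged 2.68 on H1650 control arrays and 6.82 on the arrays labelled KD, whereas in H1693 and H1993 it lay between -0.12 and 0.02. Epithelial markers were read in all lines, with EPCAM between 12.48 and 13.43 and CDH1 between 12.05 and 13.84 on the 12 arrays. Of 10 such markers, 5 were called lower and 1 higher in H1650, with KRT8 (at most 11.90 there, against 14.61 or more in the other lines) at -4.47 and KRT18 at -0.85. In H1693 1 was lower and 2 higher and in H1993 2 were higher, CDH1 rising by 0.72 and 0.85. Of 3 leukocyte markers on the array PTPRC read 3.47 to 4.50, CD3E 5.81 to 6.37, and CD14 8.11 to 8.86 in H1993 against at most 6.57 elsewhere, with changes of 0.50 in H1993 (not called), 0.10 in H1693 (not called) and -0.55 in H1650. Of 5 fibroblast and endothelial markers 1 was called, COL1A1 (7.99 to 10.53), which rose by 0.67 in H1693 (adjusted p = 0.00438, limma) and by 0.59 in H1993 (adjusted p = 0.00834). The part of these markers in the histone changes was not tested. Lung adenocarcinoma markers NKX2-1 (6.90 to 7.32) and SFTPB (6.55 to 7.08) hardly varied over the lines, and KRT7 read 6.37 to 6.74 in H1693 against 13.94 or more in the others.

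After MARK2 knockdown, the histone genes called were mostly higher in H1693 and mostly lower in H1993. In H1693, 23 of the 55 tested genes rose (41.8%) and 2 fell (3.64%) at an adjusted p under 0.05, where 17% of all 16206 genes tested rose and 15.9% fell. In H1993, 19 fell (34.5%) and 2 rose (3.64%), where 14.5% of all genes fell and 18.9% rose. Median changes of the 55 were 0.28 in H1693, where all tested genes had a median of -0.021, and -0.21 in H1993, where all genes had 0.017. Rises of at least 2-fold were called for 13 genes in H1693, and falls of at least 2-fold for 4 in H1993. No gene fell in both lines, and 2 rose in both, H2BC21 and H2BC5. Another 12 rose in H1693 with no call in H1993, and 10 fell in H1993 with no call in H1693. There were 9 genes that rose in H1693 and fell in H1993, namely H2AC8, H2AC13, H2AC17, H2BC7, H2BC11, H2BC12, H2BC13, H3C2 and H3C10. The share of all genes with such joint calls was not counted, so the overlaps only describe the 55 genes. The filter let a gene pass on the arrays of a single line, so these counts describe the 55 and not all 62. The samples are bulk cultures, in which fewer cells with a transcript and less transcript per cell cannot be told apart.

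**Figure D1:**
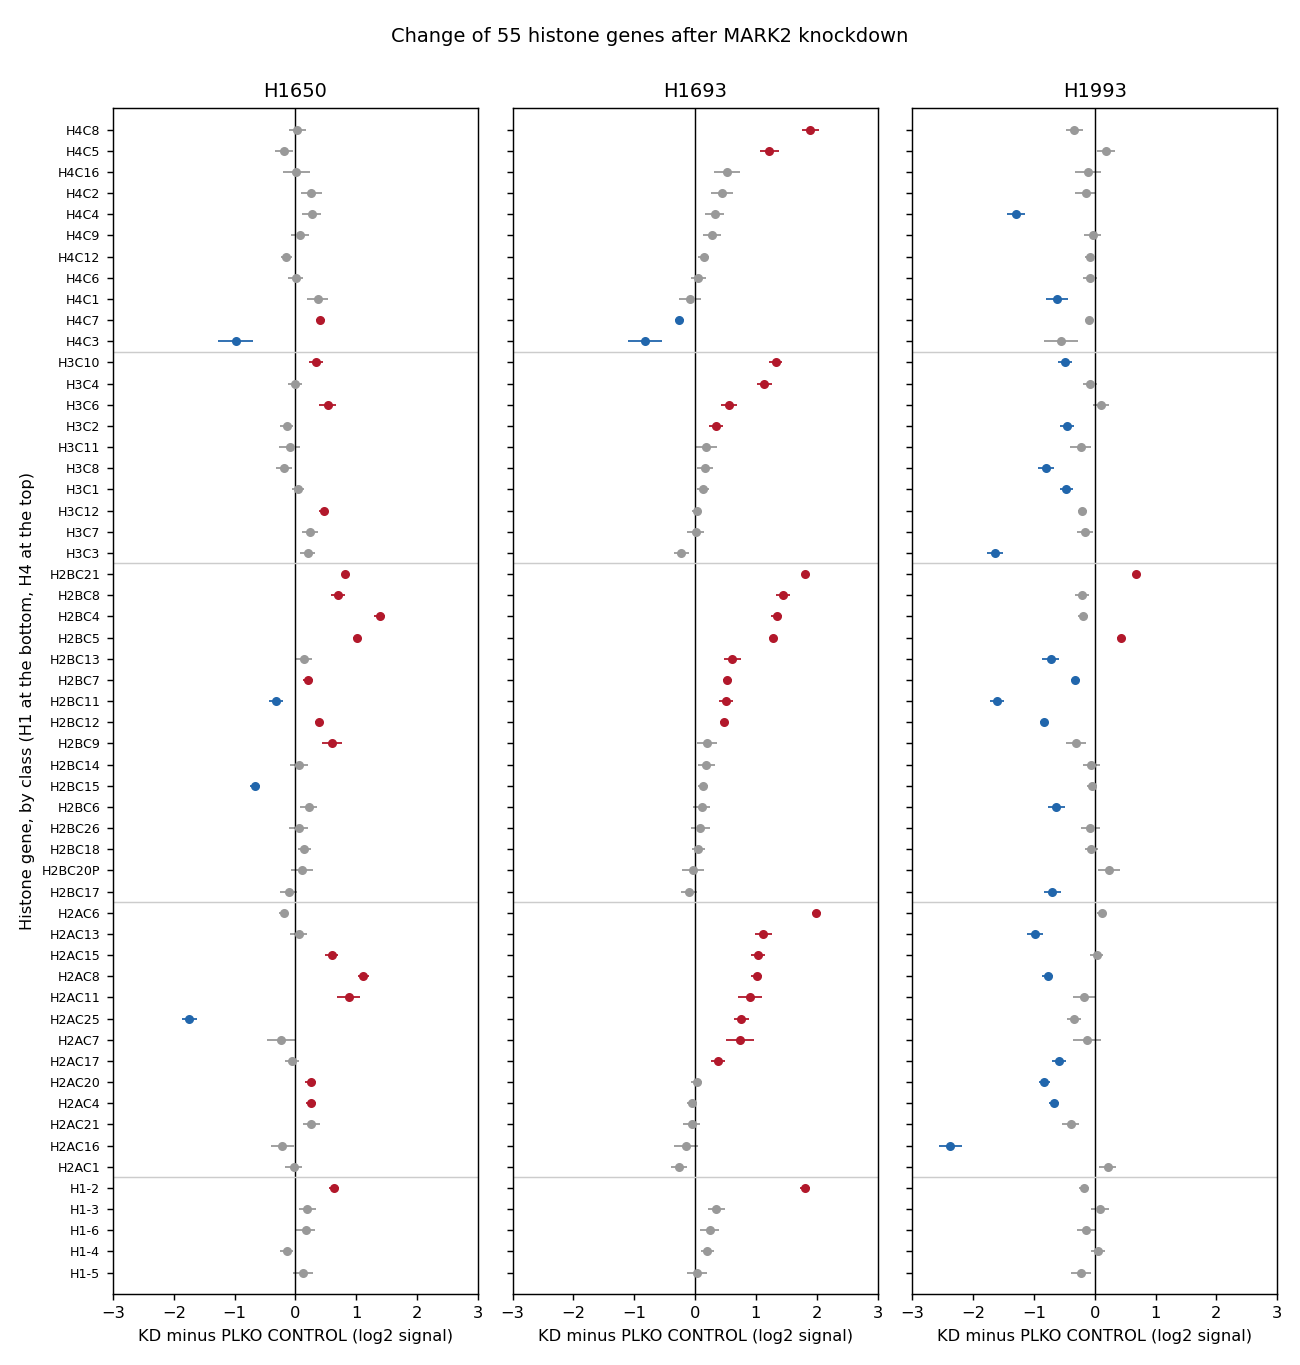
Change after MARK2 hairpin (KD minus PLKO CONTROL, log2 signal, horizontal axis) of the 55 tested histone genes, 1 row per gene, in H1650, H1693 and H1993; points are the difference of 2 against 2 arrays, bars are 1 standard error from limma, and red and blue mark genes called higher or lower at an adjusted p under 0.05. The 23 red points of H1693 and the 19 blue points of H1993 stand on opposite sides of 0, and grey points did not pass the test.

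Among the linker histones, H1-2 was the only one of 5 tested genes to pass in any line. H1-2 (chr6:26055740-26056470, read by an _x_at probe set) is a main linker histone of somatic cells. Its H1693 control arrays read 9.40 and 9.38 and its KD arrays both read 11.20, and in H1993 the values were 12.40 and 12.42 on control and 12.26 and 12.22 on KD arrays. It rose by 1.81 in H1693 (SE 0.083, adjusted p = 1.3e-06, limma), a 3.51-fold change, and the change of -0.17 in H1993 did not pass (adjusted p = 0.147). Even the raised H1693 arrays stayed lower than every H1993 array. H1-3, H1-4, H1-5 and H1-6 changed by 0.02 to 0.35 in H1693 and by -0.23 to 0.09 in H1993, all short of the threshold. H1-3 lay between 4.79 and 5.62 over the 12 arrays, near the filter.

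Of 13 tested H2A genes, 8 rose in H1693 (61.5%, all genes 17%) and none fell, with a median change of 0.74. In H1993, 6 fell (46.2%, all genes 14.5%) and none rose, with a median of -0.40. H2AC6 (chr6:26124172-26124690) had the largest rise of all members in H1693, from 9.24 and 9.22 to 11.23 and 11.22. This was a change of 1.99 (SE 0.076, adjusted p = 6.84e-07, limma), or 3.98-fold. Its H1993 arrays read 9.98 and 10.07 on control and 10.10 and 10.18 on KD, a change of 0.11 that did not pass (adjusted p = 0.311). The H1693 KD arrays thus exceeded all H1993 arrays of this gene.

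H2AC16 (chr6:27865317-27865798) had the largest fall of any member in H1993. Its H1993 control arrays read 8.98 and 8.57 and its KD arrays 6.45 and 6.34, so that it fell by 2.38 (SE 0.195, adjusted p = 1.86e-05, limma), or 5.19-fold. In H1693 it read 5.44 and 6.05 on control and 5.60 and 5.59 on KD arrays, with no call (adjusted p = 0.637). After the fall, the H1993 KD arrays of H2AC16 read close to its H1650 control arrays, 6.44 and 6.75, and the KD and control arrays of H1993 did not overlap. H2AC13 moved both ways. It went from 5.73 and 5.27 to 6.62 and 6.63 in H1693 and from 7.87 and 7.70 to 6.77 and 6.84 in H1993, changes of 1.12 (adjusted p = 0.000195) and -0.98 (adjusted p = 0.000401). The lines were thus far apart at H2AC13 on control arrays and close together on KD arrays. H2AC8 went from 9.67 and 9.58 to 10.65 and 10.63 in H1693 and from 8.71 and 8.75 to 7.84 and 8.08 in H1993, changes of 1.01 (adjusted p = 3.76e-05) and -0.78 (adjusted p = 0.000162). For H2AC8 the H1693 arrays were already the higher ones before knockdown, so its lines moved apart. H2AC11, H2AC15, H2AC25, H2AC7 and H2AC17 also rose in H1693, by 0.38 to 1.03, and H2AC20, H2AC4 and H2AC17 also fell in H1993, by 0.59 to 0.83. Of these, H2AC7 exceeded a signal of 5 on H1693 arrays alone, and the other probe sets of H2AC15 changed by 0.35 and 0.09 in H1693. H2AC1 lay between 4.57 and 5.24 and passed in no line.

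Of 16 tested H2B genes, 8 rose in H1693 (50.0%, all genes 17%) and none fell. In H1993, 6 fell (37.5%, all genes 14.5%) and 2 rose (12.5%, all genes 18.9%). The 2 that rose in H1993 also rose in the other lines. H2BC21 (chr1:149884459-149886682) read 9.09 and 9.04 on H1693 control arrays and 10.84 and 10.91 on KD arrays, and in H1993 it went from 10.54 and 10.60 to 11.29 and 11.22. Its changes were 1.81 in H1693 (SE 0.062, adjusted p = 3.21e-07, limma) and 0.68 in H1993 (adjusted p = 3.19e-05), and as a mean over its 3 probe sets they were 1.06 and 0.32, both still called. H2BC5 went from 11.87 on both H1693 control arrays to 13.14 and 13.16, and from 11.05 and 11.13 to 11.54 and 11.51 in H1993, changes of 1.28 (adjusted p = 1.88e-06) and 0.44 (adjusted p = 0.000543). In both genes KD and control arrays were apart in every line, with the wider gap in H1693.

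H2BC4 and H2BC8 rose in H1693 with no call in H1993. H2BC4 read 9.09 and 9.15 on control and 10.44 and 10.48 on KD arrays of H1693, a change of 1.34 (adjusted p = 7.23e-06, limma). H2BC8 went from 9.26 and 9.27 to 10.66 and 10.76, a change of 1.44 (SE 0.11, adjusted p = 1.67e-05). H1993 changes were -0.19 for H2BC4 and -0.21 for H2BC8. H2BC13 and H2BC7 rose in H1693 by 0.61 and 0.53.

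H2BC11 and H2BC12 changed in both lines in opposite directions. H2BC11 (chr6:27132316-27132795) read 9.24 and 9.25 on H1993 control arrays and 7.52 and 7.76 on KD arrays, so that it fell by 1.60 (SE 0.11, adjusted p = 7.65e-06, limma), while in H1693 it went from 7.25 and 7.18 to 7.61 and 7.83, a rise of 0.51 (adjusted p = 0.0063). H2BC12 (chr6:27138293-27146858) fell in H1993 from 13.77 and 13.70 to 12.93 and 12.86, a change of -0.84 (SE 0.066, adjusted p = 1.48e-05), and rose in H1693 from 12.18 and 12.17 to 12.62 and 12.67, a change of 0.47 (adjusted p = 0.000454). The other probe set of H2BC12 changed by 0.22 in H1993 and by 0.03 in H1693, so this gene's fall and rise rest on 1 set. For the sets used, the H1993 control arrays of both genes were far above those of H1693, and the KD arrays of the 2 lines lay close together. The annotated span of H2BC12 contains H4C9, which was called in no line. H2BC13, H2BC6, H2BC17 and H2BC7 also fell in H1993, by 0.32 to 0.73, and H2BC17 exceeded a signal of 5 on H1993 arrays alone.

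Of 10 tested H3 genes, 4 rose in H1693 (40.0%, all genes 17%) and none fell. In H1993, 5 fell (50.0%, all genes 14.5%) and none rose. H3C3 (chr6:26045384-26045869) read 7.13 and 7.14 on H1993 control arrays and 5.68 and 5.31 on KD arrays, so that it fell by 1.64 (SE 0.12, adjusted p = 1.16e-05, limma), or 3.12-fold. Its H1693 arrays read 4.71 and 4.97 on control and 4.66 and 4.56 on KD, with no call (adjusted p = 0.199). H3C10 rose in H1693 from 7.09 and 7.02 to 8.35 and 8.41 (1.32, adjusted p = 2.47e-05) and fell in H1993 from 7.26 and 7.42 to 6.72 and 6.97 (-0.49, adjusted p = 0.00712). The control arrays of these 2 lines were thus close together at H3C10, and the KD arrays were wide apart. H3C4 rose in H1693 by 1.14 (adjusted p = 8.76e-05). Its annotated span overlaps that of H2AC7, which rose by 0.74 (adjusted p = 0.0334), and their signals may not be separate. H2AC7 passed the filter through H1693 arrays alone, with 5.06 and 4.92 on control and 5.34 and 6.12 on KD arrays there. H3C8, whose 12 arrays lay between 8.42 and 9.47, fell in H1993 by 0.81 (adjusted p = 0.00115), and H3C1 and H3C2 fell there by 0.47 and 0.46. H3C6 rose in H1693 by 0.56 and H3C2 by 0.34. H3C11 lay between 5.21 and 5.93 and passed in no line.

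Of 11 tested H4 genes, 2 rose (18.2%, all genes 17%) and 2 fell (18.2%, all genes 15.9%) in H1693. In H1993, 2 fell (18.2%, all genes 14.5%) and none rose, so the falls and the H1693 rises lay near the background. H4C8 (chr6:26285126-26285534) went from 6.99 and 7.15 to 8.96 and 8.97 in H1693, a change of 1.89 (SE 0.14, adjusted p = 1.12e-05, limma), or 3.72-fold. In H1993 it read 7.98 and 8.11 on control and 7.53 and 7.89 on KD arrays, a change of -0.34 that did not pass (adjusted p = 0.0942). The order of the 2 lines at H4C8 was thus reversed between control and KD arrays. H4C5 rose in H1693 by 1.22 (adjusted p = 0.00026). H4C4 (chr6:26188710-26189112) fell in H1993 from 7.56 and 7.64 to 6.09 and 6.52, a change of -1.29 (SE 0.155, adjusted p = 0.000171), and its KD arrays there still exceeded all arrays of the other lines. H4C1 fell there by 0.62 (adjusted p = 0.0224).

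H4C3 and H4C7 were the 2 genes that fell in H1693. H4C3 read 12.22 and 12.01 on control and 11.26 and 11.33 on KD arrays, a change of -0.82 (SE 0.28, adjusted p = 0.0494, limma). It changed by -0.98 in H1650 (adjusted p = 0.014) and by -0.55 in H1993 (adjusted p = 0.175), where control arrays read 11.56 and 11.93 and KD arrays 10.89 and 11.50. The KD mean of H4C3 was thus below the control mean in all lines, with replicates that differed widely. H4C7 read 5.58 and 5.75 on control and 5.46 and 5.36 on KD arrays of H1693, a change of -0.26 (adjusted p = 0.0316). Neither fall was firm. Without H1693 KD replicate 1 or 2, or without H1693 PLKO CONTROL replicate 2, neither passed, and without H1693 PLKO CONTROL replicate 1, or without any 1 of the H1650 and H1993 PLKO CONTROL arrays, H4C3 did not. H4C6 lay between 4.86 and 5.38 and passed in no line.

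**Figure D2:**
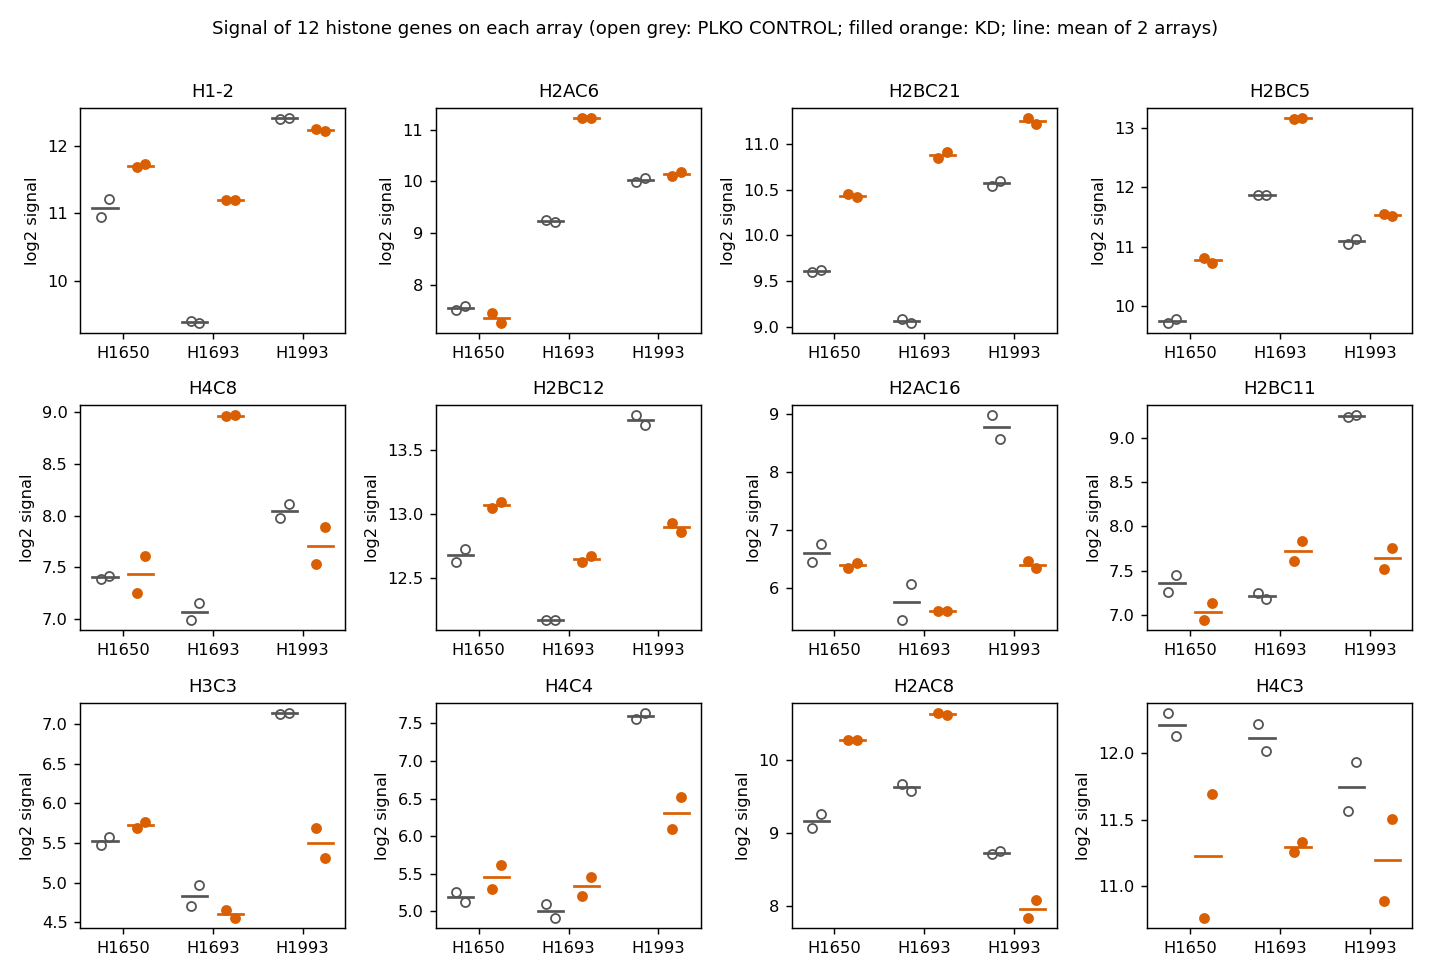
Log2 signal (vertical axis, own scale in each panel) of 12 histone genes on each array, by line; open grey circles are PLKO CONTROL, filled orange circles are KD, and lines are means of 2 arrays. H2AC6 rises in H1693 from 9.24 and 9.22 to 11.23 and 11.22, and H2AC16 falls in H1993 from 8.98 and 8.57 to 6.45 and 6.34.

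The difference between the changes of the 2 lines was tested directly. It passed for 29 of the 55 genes (52.7%), against 22.1% of all genes tested, and in all 29 the change was lower in H1993, as it was for 9.48% of all genes. Whatever the p, 51 of the 55 had the lower change in H1993, with a median difference of -0.75 where all genes had 0.048. H2AC6 differed by -1.88 (SE 0.11, adjusted p = 9.95e-06, limma), H1-2 by -1.98 (SE 0.12, adjusted p = 1.11e-05) and H2BC12 by -1.31 (SE 0.093, adjusted p = 2.4e-05). H2AC8 differed by -1.79 (adjusted p = 2.81e-05) and H2BC11 by -2.11 (adjusted p = 3.27e-05). These 5 had the smallest p of the test. They were genes called in H1693 and not in H1993 (H2AC6, H1-2) and genes called in both lines in opposite directions, with H2BC12 and H2BC11 starting higher in H1993 and H2AC8 starting higher in H1693. Over the 55 genes the changes of the 2 lines had a Pearson correlation of 0.28, and over all tested genes 0.39, given as a description since genes share arrays. The joint test of the 3 lines passed for 36 genes (65.5%), against 54.9% of all genes. Smallest p in that test belonged to H2AC6, H1-2, H2AC8, H2BC12 and H2AC25.

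**Figure D3:**
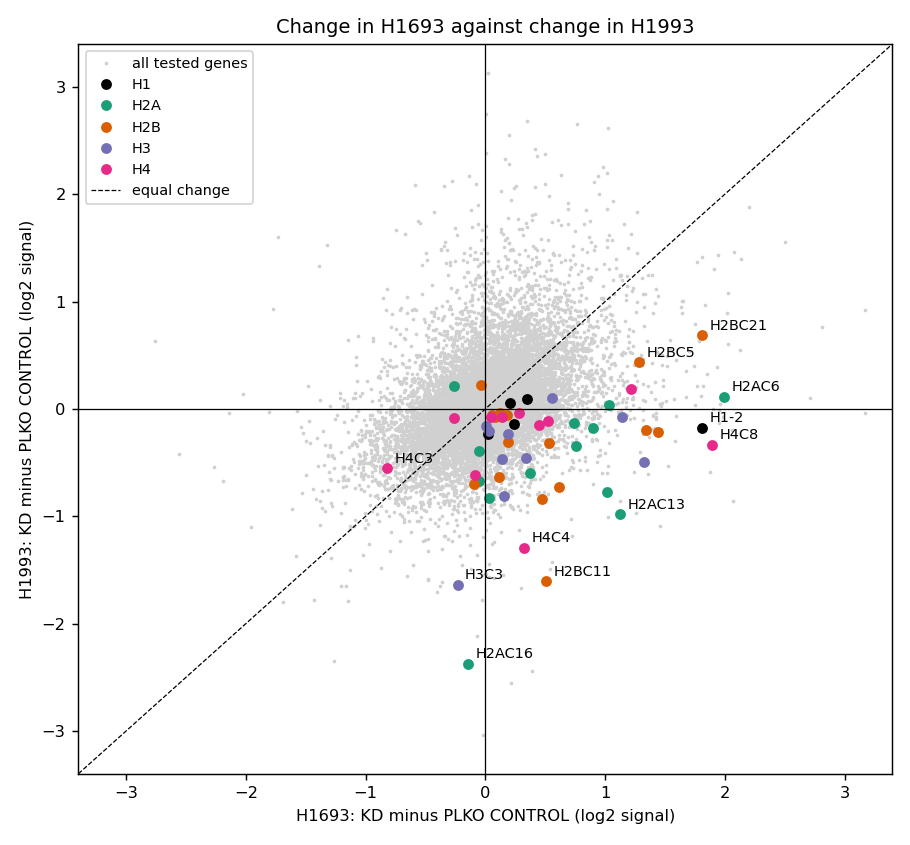
Change in H1693 (horizontal) against change in H1993 (vertical), both KD minus PLKO CONTROL in log2 signal, for the 16206 tested genes (grey) and the 55 histone genes coloured by class; the dashed line marks equal change. Of the 55, 51 lie under the dashed line, and H2BC21 and H2BC5 are the 2 called higher in both lines.

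Control readings of the histone genes differed between the lines. Both H1993 control arrays exceeded the 4 control arrays of the other lines for 32 of the 55 genes (58.2%), against 21.3% of all genes tested. The same held for H1693 control arrays in 9 genes (16.4%, all genes 21.3%) and for H1650 control arrays in 4 (7.27%, all genes 32.8%). Of the 19 genes that fell in H1993, 18 were among the 32. The fall uses the same control arrays, so a high control reading favours both. The share among all genes that fell in H1993 was not counted. In 11 of the 19, the H1993 KD arrays still exceeded every control array of the other lines. H2AC20 is one of these, with 11.22 and 11.23 on control and 10.34 and 10.45 on KD arrays, against 7.85 to 9.08 on the control arrays of H1693 and H1650.

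Calls were also counted by signal level, with a mean that includes the raised KD arrays. Of the 21 genes with a mean of at least 7 over the 12 arrays, 15 rose, 1 fell and the median change was 0.90, while of the 34 with a lower mean 8 rose, 1 fell and the median was 0.16. Among all genes tested, 21.5% rose in H1693 at the higher means and 7.24% at the lower, so calls were more frequent at high signal there too. In H1993 7 of the 21 and 12 of the 34 fell, where 19.4% and 3.64% of all genes did. By place, 21 of the 47 tested genes of the cluster on the short arm of chromosome 6 rose in H1693 (44.7%, all genes 17%). In H1993, 18 of them fell (38.3%, all genes 14.5%). Of the 5 tested genes in the chromosome 1 cluster that holds H2BC21, this gene rose in both lines, and H2AC20 fell in H1993 by 0.83 (adjusted p = 0.000102) with no change called in H1693.

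Length of the annotated gene was set against the changes after the values had been seen. RefSeq gives 48 of the tested genes a span of 386 to 797 bases and the remaining 7 a span over 1000 bases, namely H2BC4, H2BC5, H2BC12, H2BC18, H2BC21, H3C4 and H3C6. Of these 7, 6 rose in H1693, against 17 of the other 48 and 17% of all genes. The median changes of the 7 and the 48 were 1.14 and 0.20. H2BC4, H2BC5, H2BC12, H2BC21 and H3C4 also had a mean of at least 7, the level at which rises were more frequent in H1693. Span and signal level were not separated, and calls by span were not counted over all genes. In H1993, 1 of the 7 fell, H2BC12, and 2 rose, against 18 falls and no rise among the 48. Of all genes, 14.5% fell and 18.9% rose there. The exception in H1693, H2BC18, was read by a probe set that changed by 0.05, and 3 other probe sets of this gene changed by 0.98, 0.97 and 0.33. These 3 sets changed by 0.34, 0.54 and 0.08 in H1993, and by -0.36, -0.11 and 0.10 in H1650. The set used changed by -0.06 in H1993.

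In H1650, 17 of the 55 genes were called higher (30.9%) and 4 lower (7.27%), against 36.7% and 16.7% of all genes tested. These shares were no greater than the background, the targeted gene was not called lower there, and the 3′ to 5′ difference given above moved with the groups; the part of that difference in these changes was not tested and cannot be told apart from the hairpin. With quantile normalisation on top of the deposited values the counts became 12 higher and 6 lower, and the median of all genes moved from 0.152 to 0.037. H2BC4 read 6.89 and 7.10 on control arrays and 8.29 and 8.47 on arrays labelled KD, a rise of 1.38 (SE 0.090, adjusted p = 1.94e-06, limma). H2AC8 went from 9.07 and 9.26 to 10.27 and 10.28 (1.11, adjusted p = 8.34e-06) and H2BC5 from 9.72 and 9.79 to 10.81 and 10.73 (1.01, adjusted p = 1.57e-06), though of its other 2 probe sets 1 changed by 0.99 and 1 by 0.018. H2BC21 rose by 0.82 (adjusted p = 4.62e-06), or by 0.44 as a mean over its probe sets. H2AC11 changed by 0.88 (adjusted p = 0.00322), from 6.67 and 7.38 to 7.75 and 8.05, but by 0.52 without H1650 PLKO CONTROL replicate 1. Its other probe set changed by -0.13 and the mean of both by 0.37, so no direction is given for it in H1650. All 5 rose in H1693. In total 12 genes were called higher in H1650 and H1693, and 6 were higher in H1650 and lower in H1993. For these overlaps too, the share of all genes was not counted.

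The 4 falls in H1650 were led by H2AC25 (chr1:228457364-228457873), an H2A gene outside the large clusters. It read 8.46 and 8.06 on control and 6.63 and 6.39 on arrays labelled KD, so that it fell by 1.75 (SE 0.12, adjusted p = 2.88e-06, limma), but rose in H1693 from 8.37 and 8.41 to 9.14 and 9.15 (0.76, adjusted p = 0.00106). H4C3 went from 12.30 and 12.12 to 10.77 and 11.69, so that its replicates labelled KD stood apart from each other, and without H1650 KD replicate 1 or without H1650 PLKO CONTROL replicate 1 it no longer passed. H2BC15 fell from 7.98 and 7.95 to 7.31 and 7.29 (-0.66, adjusted p = 0.000104). H2BC11 changed by -0.32 (adjusted p = 0.0362), and its other 2 probe sets changed by 0.43 and 0.12, so no direction is given for it in H1650. Without H1650 KD replicate 1 or H1650 PLKO CONTROL replicate 2, or without either H1693 PLKO CONTROL replicate, its call was lost as well.

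Head-to-head H2A and H2B genes were compared as pairs, a comparison chosen after the values were seen. Among the 56 genes with a promoter window there were 11 such pairs, with starts 193 to 247 bases apart. All had CCAAT and 8 had the octamer between the starts, and 9 had both genes tested. Genes without a window were not searched. In H1693, 8 of the 9 pairs changed with one sign (88.9%) and in 5 both genes rose (55.6%). Among these 5 was H2AC7 with H2BC7, although H2AC7 passed the filter through H1693 arrays alone. Of all 208 couples of a tested H2A with a tested H2B gene, 64.4% had one sign there and 30.8% were called in one direction. In H1993, 6 pairs had one sign (66.7%, all couples 66.8%), a share at the background. In 2 both genes fell (22.2%, all couples 17.3%), H2BC13 with H2AC13 and H2AC17 with H2BC17. Of these genes, H2BC17 passed the filter through H1993 arrays alone. Partners nevertheless could differ widely. H2BC21 rose by 0.68 in H1993 while H2AC20, 235 bases away, fell by 0.83, and in H1693 H2BC21 rose by 1.81 with H2AC20 at 0.03. H2BC11 fell by 1.60 in H1993 with H2AC11 at -0.18, or at -0.50 by the other H2AC11 probe set. In H1650, 4 pairs had one sign (44.4%, all couples 52.4%). There H2AC15 and H2BC15 were called in opposite directions, at 0.59 and -0.66. The other probe sets of H2AC15 changed by only 0.015 and 0.12 in H1650, so its rise there rests on 1 set.

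**Figure D4:**
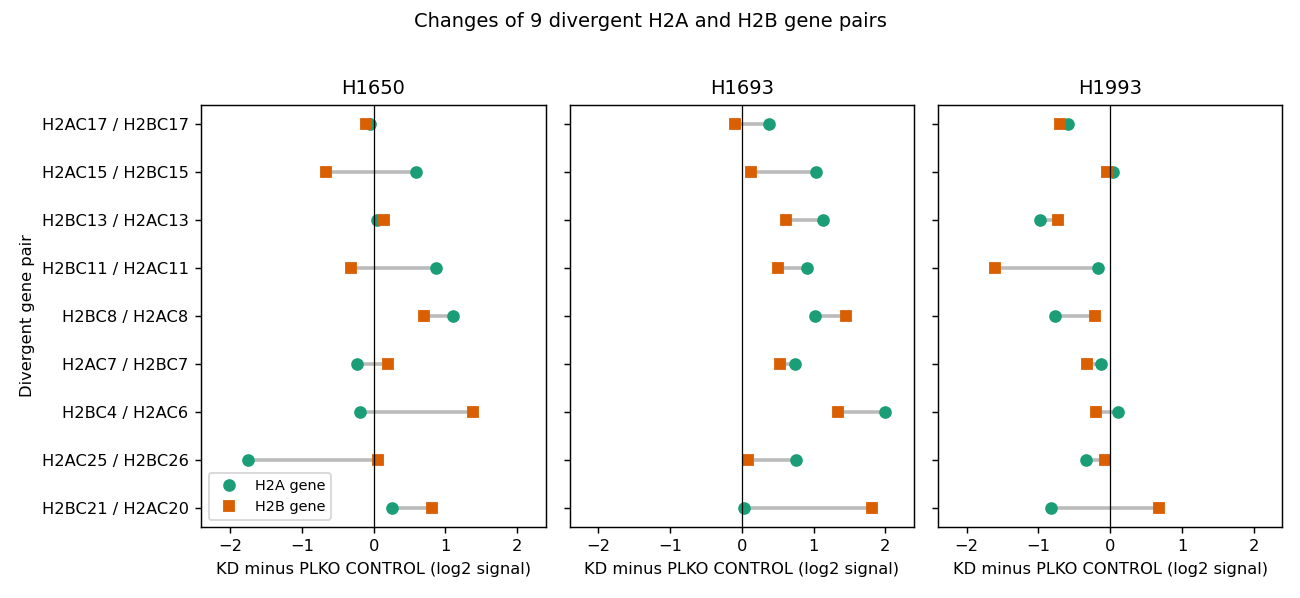
Changes (KD minus PLKO CONTROL, log2 signal, horizontal axis) of the 2 genes of 9 head-to-head pairs, 1 row per pair, in each line; circles are H2A genes, squares are H2B genes, and the grey bar joins partners. In H1693, 8 of the 9 pairs lie on one side of 0, and in H1993 H2BC21 and H2AC20 lie at 0.68 and -0.83.

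Probe sets of one gene could be checked against each other. Of the 55 tested genes, 29 were read by a plain _at set, 17 by an _s_at, 8 by an _x_at and 1 by an _a_at set. For the 27 tested genes with more than 1 probe set, the range of the change over the sets had a median of 0.15 in H1693, 0.23 in H1993 and 0.30 in H1650. Among called genes with several sets, all sets had one sign for 15 of 15 in H1693, 13 of 14 in H1993 and 12 of 14 in H1650. The exceptions were H2BC12 in H1993 and H2AC11 and H2BC11 in H1650. Members read by shared sets, H2AC6, H4C8, H1-2, H2BC4 and H2BC8 among them, are uncertain as to which relative was read, whereas H2AC16, H3C3, H4C4, H2BC12 and H2BC5 were read by plain sets, with the disagreements given above for H2BC12 and, in H1650, H2BC5.

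Genes of DNA replication fell in H1693, where many histone genes rose. Of 19 S phase genes, 18 fell in H1693 and none rose, (94.7%, against 15.9% of all genes) with a median of -0.75, led by MCM4 of the replicative helicase (-1.30, adjusted p = 3.76e-05, limma), CCNA2 or cyclin A2 (-1.19) and CCNE2 or cyclin E2 (-1.15). In H1993, 7 fell (36.8%, all genes 14.5%) and 2 rose with a median of -0.13, led by MCM5 (-0.89), CCNA2 (-0.66) and CDC25A (0.62). In H1650, 8 fell (42.1%, all genes 16.7%) and 4 rose. The S phase genes and the histone genes thus had medians of opposite sign in H1693 and of the same sign in H1993.

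Of 23 genes for histone transcription and transcript processing, 12 fell in H1693 (52.2%, all genes 15.9%) and none rose, and 7 fell (30.4%, all genes 14.5%) and 1 rose in H1993. SLBP, which binds the stem-loop, fell by 0.41 in H1693 (adjusted p = 0.00396, limma) and changed by -0.01 in H1993 (adjusted p = 0.963). NPAT, a coactivator of histone transcription, fell by 0.37 in H1693 (adjusted p = 0.0118) and changed by 0.04 in H1993 (adjusted p = 0.809). Larger falls in H1693 belonged to LSM11 of the U7 particle that helps cut histone transcripts (-0.94), SRRT (-0.74) and ZNF473 (-0.66). In H1993 the largest were CSTF2 (-0.64) and SNRPE (-0.43), and TUT7, which adds uridines to transcripts, rose (0.39). In H1650, 10 of these rose (43.5%, all genes 36.7%) and 2 fell, led by CSTF2T (0.80).

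Poly(A) tailing genes bear on what the label can read. Of 11, 5 fell and 1 rose in H1693, 2 fell and 2 rose in H1993, and 2 fell and 6 rose in H1650. The falls in H1693 made 45.5%, against 15.9% of all genes. The shares in H1993, 18.2% either way, lay near the 14.5% and 18.9% of all genes, as did the 18.2% that fell in H1650 (all genes 16.7%), where 54.5% rose (all genes 36.7%). The fall in H1993 was largest for NUDT21, a cleavage factor that steers the choice of poly(A) site, at -0.88 (adjusted p = 0.000155, limma). The one riser in H1693 was WDR33 (0.21, adjusted p = 0.0265), which also rose in H1993 (0.49). PABPN1 (-1.30) and PAPOLG (0.79) led in H1650. Whether transcripts with and without a tail changed alike was not tested.

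Chaperones that carry histones to DNA fell in part in every line, 15 of 20 in H1693 (all genes 15.9%), 8 in H1993 (all genes 14.5%) and 13 in H1650 (all genes 16.7%). In the same order 1, 1 and 2 rose (5%, 5% and 10%), against 17%, 18.9% and 36.7% of all genes. HJURP, the chaperone of the centromeric variant CENPA, fell by 1.15 in H1693 (adjusted p = 1.08e-05, limma) and by 0.65 in H1993, MCM2 fell by 0.91 in H1693, and RBBP4 fell by 0.87 in H1993. ATRX was the one riser of both lines (0.44 and 0.51). NAP1L4 (-1.64) and ASF1B (-1.46) fell most in H1650. Of 9 tested replication-independent variants, 3 fell and 1 rose in each line, shares of 33.3% and 11.1%. The falls were above the shares of all genes given for the chaperones, and the rises were below them. CENPA itself fell by 1.04 in H1693 (adjusted p = 1.08e-05) and 0.75 in H1993, H2AZ2 fell by 0.32 and 0.35, and H2AJ was the riser in all lines, at 0.52, 0.61 and, in H1650, 0.89. In H1650 H1-10 (-2.18) and MACROH2A2 (-1.92) fell most. Median changes of the variants, -0.115 in H1693 and -0.048 in H1993, were nearer to 0 than those of the cluster genes.

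**Figure D5:**
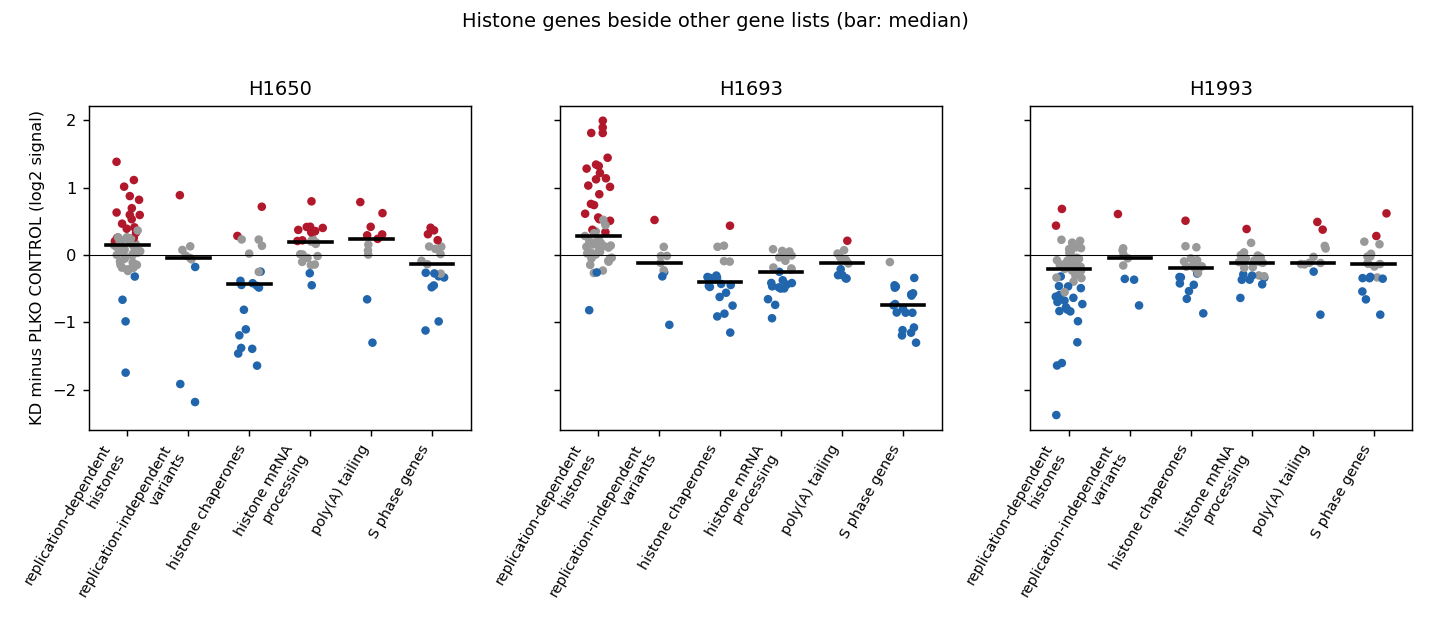
Change (KD minus PLKO CONTROL, log2 signal, vertical axis) of the tested cluster histone genes and of 5 other gene lists, 1 point per gene, in each line; red and blue mark genes called higher or lower at an adjusted p under 0.05, grey marks the rest, and bars are list medians. In H1693 the histone median is 0.28 and the S phase median -0.75, and in H1993 they are -0.21 and -0.13.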

How the data were processed

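RNA of 12 cultures (3 lines, KD or PLKO CONTROL, 2 biological replicates each) was read on Affymetrix arrays. The deposited log2 signals cover 49395 probe sets per array. According to the submitters' processing notes, the authors made them with RMA, run in the program Affymetrix Expression Console, of no version given in the sources used here. This method equalises the arrays' distributions, so shifts shared by most genes are removed. The platform table gave 44988 probe sets a single symbol, and 9 histone probe sets with several symbols were left out. The brightest probe set per gene was tested if it reached log2 5 on at least 2 arrays.

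Groups were compared in limma 3.58.1 (R 4.3.3) by lmFit and eBayes over all 12 arrays with 6 group means, 6 residual degrees of freedom and two-sided tests. Benjamini-Hochberg adjustment ran over all 16206 genes, with a threshold of 0.05. The script was tested on simulated data. With 2 replicates per group, p-values measure the spread between these cultures. Alternatives changed the filter, the probe set summary, the normalisation, the eBayes prior, the arrays fitted and the blocks, and left out each array in turn. Same-numbered replicates of a line deviated with correlations of -0.105 (H1650), -0.176 (H1693) and 0.286 (H1993), so the numbers were not taken to pair cultures.

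Members and lists were chosen with earlier results of these data known. Named are, per line, the 5 largest called falls and rises, the 5 smallest p-values of each test between lines, the highest and lowest reading member of each class, and up to 3 called genes per list and line; other members are named where a count of few genes or a pattern needed them, after their values were seen. Sequences are RefSeq's, GRCh38.p14.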

Additional observations from a re-analysis of the deposited data

Results flagged for a closer look

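The change differed between H1693 and H1993 by a test of the difference itself (limma, adjusted p under 0.05) for these named genes, all lower in H1993. The difference, H1993 change minus H1693 change in log2 signal, was -1.98 for H1-2, -1.88 for H2AC6, -1.79 for H2AC8, -1.08 for H2AC11, -2.11 for H2AC13, -2.23 for H2AC16 and -1.1 for H2AC25. Among H2B genes it was -1.54 for H2BC4, -0.846 for H2BC5, -1.66 for H2BC8, -2.11 for H2BC11, -1.31 for H2BC12 and -1.13 for H2BC21. It was -1.41 for H3C3, -0.967 for H3C8, -1.62 for H4C4 and -2.23 for H4C8.

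Over the 3 lines the joint test of the change also passed for 3 named genes whose H1993 and H1693 changes did not pass as different. The adjusted p was 0.000772 for H2BC15, which fell in H1650 alone among the calls, 0.0343 for H2BC17 and 0.0018 for H4C7, which rose in H1650 by 0.41 and fell in H1693 by 0.26.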

How the results depend on the processing

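The counts of rises in H1693 (21 to 25, reported as 23), falls in H1993 (19 to 24, reported as 19) and differences between these lines (29 to 33, reported as 29) stayed within 1.5 times under every alternative other than leaving out an array, and leaving out 1 array gave 19 to 24, 16 to 21 and 27 to 30. The 2 falls in H1693 became 1 with no filter, quantile normalisation, an eBayes trend, a replicate block or an array order block, and 0 to 2 with 1 array left out. The median change in H1650, 0.142, became -0.0225 under quantile normalisation (all genes, 0.152 to 0.037), and in H1993, -0.206, it became -0.274. In H1693, 0.283, it became 0.198 with no filter and 0.333 with the filter at log2 6. Leaving out 1 array gave 0.083 (without H1650 PLKO CONTROL replicate 2) to 0.193 in H1650, 0.252 to 0.293 in H1693 and -0.249 to -0.191 in H1993. With the mean over probe sets, H2BC11 in H1650 changed by 0.0745 in place of -0.32. The replicate block gave 24 rises and 1 fall in H1693 and 21 falls and 2 rises in H1993, and among the named single changes it ended only the call of H4C7 in H1693. With the numbers crossed in H1650 and H1693, added after seeing the data, there were 25 rises and 2 falls in H1693. Of 602 alternative values of 28 named single changes, 576 kept direction and call, 25 lost the call and 1 turned. With 2 arrays a group, genes near the array's background have the least precise changes.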

Other observations

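Probe sets assigned to several histone genes were not members but can be read as values. Both sets of the paired genes H2AC18 and H2AC19 changed by 1.18 and 1.17 in H1693, by 0.02 and -0.10 in H1993 and by -1.94 and -2.28 in H1650, where the 3′ to 5′ difference of the control probe sets also moved. The _s_at set shared by H4C14 and H4C15 changed by 1.46 in H1693, -0.52 in H1993 and -0.20 in H1650. The set shared by H4C11 and H4C12 changed by 0.78, 0.10 and 0.44 in the same order. A set shared by 4 H3 genes, H3C13, H3C14, H3C15 and H3-7, changed by 0.11, -0.75 and -0.01, and one shared by H2AC7 and H3C4 by 0.90, -0.29 and -0.16. These sets were given no test.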
